A study of Homo sapiens with 6 samples.

Results

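The 33 genes described here carry a cell from G1 into S phase and copy its DNA. They comprise cyclins and other regulators of the G1/S step, the factors that license replication origins, the MCM helicase and its activators, DNA polymerases, the sliding clamp with its loader, and several genes that act during S phase. They were taken as a named list, by gene symbol. A gene was tested if at least 1 of its probes had a detection p-value under 0.05, that is a signal above background, on 3 or more of the 6 arrays, and its brightest such probe stood for it. Of the 33 genes, 30 met this rule, among 11358 genes tested in all; CCNE2, GINS1 and CLSPN did not.

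The RNA came from A549, an established line of human lung adenocarcinoma cells, into which either pcDNA-NME2-MYC (called NME2-induced) or pcDNA-MYC (control) was transfected. RNA was taken 48 h after transfection from 3 replicates of each group, which the submitters call biological replicates, and was read in 1 colour on Illumina bead arrays. The NME2 protein makes nucleoside triphosphates, can bind DNA and has been linked to the suppression of metastasis, and the comparison asks which transcripts differ once it is induced. The promoter of the plasmid and the share of cells that took it up are not given in the sources used here.

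As background, D cyclins with CDK4 or CDK6, and then E cyclins with CDK2, phosphorylate the retinoblastoma protein and so release E2F factors, which switch on many of the genes described here. In G1 the origin recognition complex, CDC6 and CDT1 load the MCM2-7 helicase onto origins. CDC45 and the GINS complex join it to form the active helicase, polymerase alpha starts each strand, replication factor C loads the clamp PCNA, and polymerases delta and epsilon extend. A549 cells are known to lack the CDKN2A locus, which encodes an inhibitor of CDK4 and CDK6.

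Each array detected 19043 to 20726 of its 47231 probes. The probe used for NME2 had log2 signals of 8.48, 8.29 and 8.28 on the NME2-induced arrays, against 7.34, 7.32 and 7.28 on the control arrays. Another detected NME2 probe was lower, at 7.50, 7.29 and 7.47 on the NME2-induced arrays and 8.05, 8.03 and 7.95 on the control arrays (log2 fold change -0.59, SE 0.09). On the control arrays it was brighter than the probe used, with a mean of 8.01 against 7.31. Which probe stands for NME2 thus depends on the NME2-induced arrays. The remaining detected NME2 probe had overlapping groups (0.26, SE 0.18). The probe used for the readthrough transcript NME1-NME2 was lower too, at 10.69, 10.62 and 10.76 on the NME2-induced arrays and 12.79, 12.63 and 12.61 on the control arrays. Its log2 fold change of -1.99 (SE 0.09) was the lowest of all genes tested. The second detected NME1-NME2 probe was at -1.89 (SE 0.14). The groups are therefore named by their labels. Of 5 epithelial markers, 4 met the detection rule, with CDH1 at 0.40 and KRT19 at -0.23 (unadjusted p = 0.00432 and 0.0314, limma adjusted p = 0.173 and 0.301); their part in the results below was not tested. The rule was also met by 4 of 5 oxidoreductases known to be abundant in A549 cells. KRT18 and AKR1C1 did not, nor did NKX2-1, a lung lineage factor, or CDKN2A. Other cell types had 9 markers on the array, of which 3 were detected (CD14, COL1A1 and ALB), with group means between 5.15 and 6.80, and none of them had an unadjusted p under 0.05.

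No gene of the G1/S and replication list passed the threshold in the comparison of NME2-induced with control arrays. By limma, at an adjusted p under 0.05 over all genes, 0 of 30 were called higher and 0 lower. At the median standard error of all genes tested, a log2 fold change of about 0.77 was needed to pass, so smaller changes could go uncalled. Over all genes tested 18 were called higher (0.158%) and 10 lower (0.088%), or 0.247% either way. At an unadjusted p under 0.05, 1 was higher (MCM2) and 1 lower (DTL), 6.67% of the 30, whereas 14.5% of all genes tested reached that level. Groups did not overlap for 7 of the 30 genes, 3 of them higher and 4 lower in NME2-induced cells, or 23.3%, close to the 22% seen over all genes tested. In all, 13 genes lay above 0 and 17 below, with a median log2 fold change of -0.01 beside 0.00 over all genes tested. All log2 fold changes are NME2-induced minus control.

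By the probes used, the data also limit how large a difference could have been missed. For 29 of the 30 genes the 95% interval of the difference lay within a 1.5-fold change either way, which held for 83.6% of all genes tested; the exception was MCM2. A 2-fold change either way lay outside the interval of all 30 genes and of 99.2% of all genes tested. These limits do not cover other probes, such as the second detected probes of RFC3 and MCM4 at -0.50 and -0.39 (SE 0.09 each). Since this scale understates the fold change of dim probes, the limits are also looser for dim genes such as E2F1 and CDC6. The genes were bright, with a median log2 level of 8.85 beside 7.40 over all genes tested, and their median standard error was 0.09 beside 0.11. Since each array had been brought to the same distribution of signals, a shift shared by most transcripts cannot be seen. In extracts of whole cultures, fewer cells in S phase and less RNA per cell cannot be told apart.

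**Figure D1:**
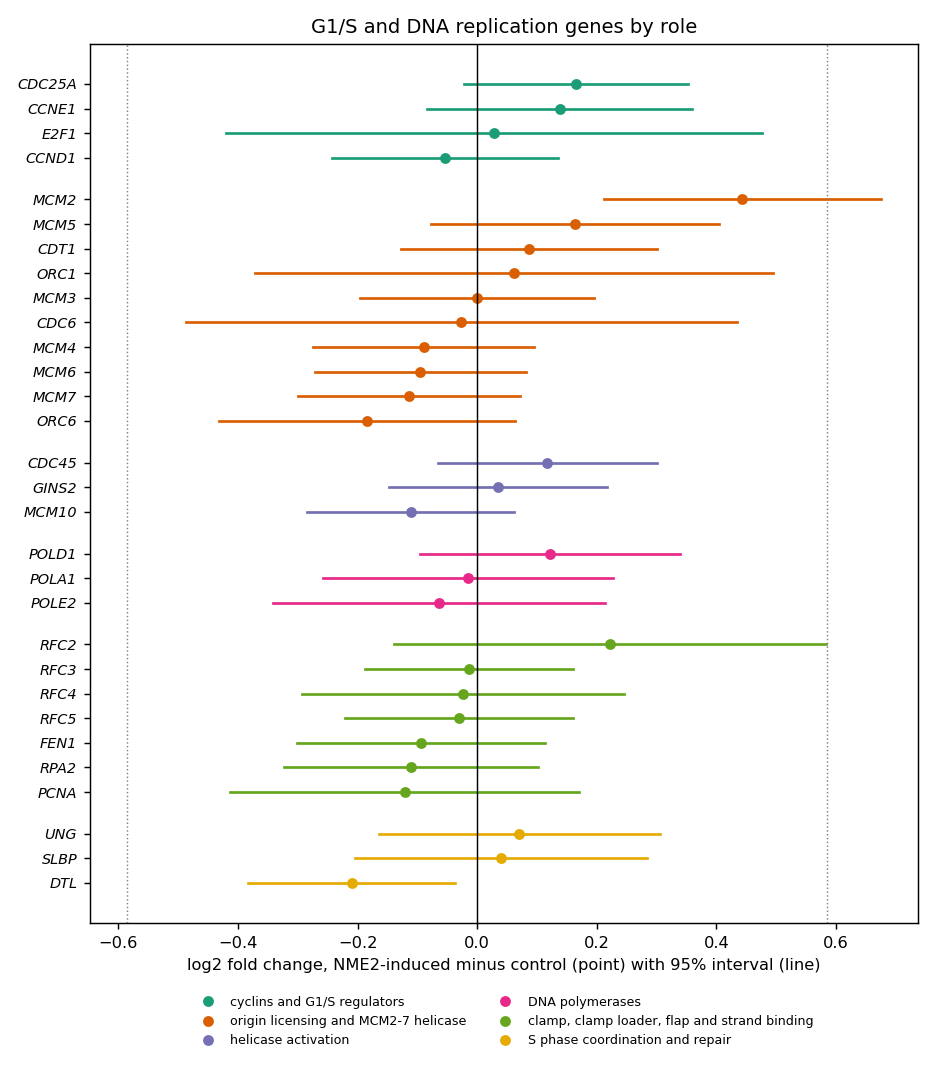
Log2 fold change, NME2-induced minus control (horizontal axis), for the 30 genes tested, grouped by role; points are fold changes from 3 arrays per group, lines their 95% intervals, and dotted lines mark 1.5-fold either way. MCM2 lies farthest from 0, at 0.44, and the intervals of MCM2 and DTL leave out 0.

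Letters of E2F sites were found in the promoters of 17 of 28 of these genes. Since E2F factors are known to switch on many genes of this list, the share is a description and not an independent result. E2F factors bind sites close to TTTCCCGC, TTTGGCGC, TTTCGCGC or TTTGCCGC, and these 4 forms were searched on both strands in RefSeq promoter windows (GRCh38.p14), from 250 bases before to 50 after a start site. At least 1 form was held by 60.7% of the 28 genes with a window, against 5.4% of 15843 protein-coding genes. CCAAT was found in 64.3% of the 28 genes and in 42.1% of all, GGGCGG in 78.6% and 64.3%, and TATAAA in 3.57% and 12.4%. CCND1, CCNE2, MCM4, MCM5 and RPA2 had no window. The stretches below are shown because they carry these letters, in capitals, in the genes with the highest and the lowest fold change (MCM2 and DTL), in the G1/S regulators CDC25A and E2F1, in a second helicase subunit, and in RFC3, whose probes disagreed. In MCM2 and MCM6, forms on opposite strands overlap.
MCM2: gtgaaccactTTTCGCGCGAAAcctggttg
DTL: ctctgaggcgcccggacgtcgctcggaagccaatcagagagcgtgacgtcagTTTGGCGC
CDC25A: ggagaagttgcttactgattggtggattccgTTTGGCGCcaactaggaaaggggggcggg
E2F1: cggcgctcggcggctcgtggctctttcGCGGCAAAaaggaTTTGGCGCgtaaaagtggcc
MCM6: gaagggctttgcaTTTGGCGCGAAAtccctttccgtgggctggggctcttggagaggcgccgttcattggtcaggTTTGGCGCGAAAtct
RFC3: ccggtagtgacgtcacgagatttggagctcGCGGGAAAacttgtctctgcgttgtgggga

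These stretches lie at chr3:127598403-127598432 on the plus strand for MCM2 (across its start site), chr1:212035688-212035747 on the plus strand for DTL, chr3:48188433-48188492 on the minus strand for CDC25A, chr20:33686386-33686445 on the minus strand for E2F1, chr2:135876519-135876608 on the minus strand for MCM6 and chr13:33818064-33818123 on the plus strand for RFC3. A match of letters is a description and not a binding site. Genes with and without the letters were both spread around 0. Of the 15 tested genes with an E2F form, 6 lay above 0 and 9 below, with a median log2 fold change of -0.01. Of the 11 tested genes whose window held none, 6 lay above and 5 below, with a median of 0.04.

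Among the cyclins and G1/S regulators, 0 of 4 tested genes passed. CDC25A, the phosphatase that activates CDK2, had log2 signals of 7.49, 7.59 and 7.47 on the NME2-induced arrays, against 7.38, 7.40 and 7.29 on the control arrays. The groups did not overlap. The difference of 0.16 (SE 0.08) on the log2 scale did not pass (adjusted p = 0.399 by limma). CCNE1, which encodes cyclin E1, was at 0.14 (95% interval -0.08 to 0.36), and CCND1, cyclin D1 and at the 96.8th percentile of signal, at -0.05 (95% interval -0.24 to 0.13). E2F1 was dim, with a mean of 5.48 ± 0.13 in NME2-induced and 5.45 ± 0.41 in control cells (SD, n = 3 each), so its difference of 0.03 has a wide interval, from -0.42 to 0.48.

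Among the genes for origin licensing, MCM2 had the largest difference, and no gene passed. MCM2 (chr3:127598411-127622436 in GRCh38.p14), read by only 1 probe on the array, is a subunit of the ring-shaped helicase. Its log2 signals were 8.45, 8.71 and 8.62 on the NME2-induced arrays, against 8.04, 8.17 and 8.24 on the control arrays. Every NME2-induced array thus lay above every control array. The signal was 1.36-fold higher in NME2-induced cells (log2 fold change 0.44, SE 0.10, 95% interval 0.21 to 0.67), which placed MCM2 at the 98.6th percentile of all genes tested. It did not pass over all genes (limma adjusted p = 0.14). It did pass with the larger offset of 50 (limma adjusted p = 0.0451) and with that offset and normexp fitted without detection p-values (limma adjusted p = 0.0309). It also passed with the trend and robust options of limma's eBayes (adjusted p = 0.00742). In the same order, these settings called 74, 83 and 163 of all genes tested higher, whereas 18 were called higher without these changes. Over all 16 alternatives the adjusted p of MCM2 lay between 0.00742 and 0.328 and its log2 fold change between 0.39 and 0.51.

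By the probes used, the other 5 subunits of the hexamer had smaller differences, none past the threshold. The second detected MCM4 probe, described below, was lower, at -0.39 (SE 0.09). MCM5 was at 0.16 (SE 0.10, 95% interval -0.08 to 0.40, which overlaps that of MCM2), MCM3 at 0.00 (SE 0.08), MCM4 at -0.09 (SE 0.08), MCM6 at -0.10 (SE 0.08) and MCM7 at -0.11 (SE 0.08). For MCM6 and MCM7 the groups did not overlap, with the NME2-induced arrays lower. Relative to the control means, MCM2 minus the mean of MCM3 to MCM7 was 0.34, 0.57 and 0.50 on the NME2-induced arrays, against -0.13, 0.04 and 0.09 on the control arrays. These values rest on the probes used and describe a gene singled out with its value known, so no p-value is given for them.

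Of the loading factors, ORC6, a subunit of the origin recognition complex, was at -0.18 (SE 0.11) by the probe used, which lay at the 99.9th percentile of signal with a mean of 14.19. The second detected ORC6 probe was much dimmer, with a mean of 8.11, and was at 0.11 (SE 0.13). ORC1 was at 0.06 (SE 0.19), the loader CDC6 at -0.03 (SE 0.20) and CDT1 at 0.09 (SE 0.09), none of them past the threshold. CDC6 varied most among NME2-induced arrays, at 5.34, 5.79 and 4.93, against 5.47, 5.28 and 5.38 on the control arrays. Without NME2-induced replicate 3 the difference of CDC6 was 0.19 and that of ORC1 -0.14, both with the sign turned.

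For helicase activation, 0 of 3 tested genes passed. CDC45, a part of the active helicase, was at 9.04, 9.01 and 9.11 on the NME2-induced arrays, against 8.88, 8.99 and 8.94 on the control arrays. The groups were apart by 0.12 on the log2 scale (SE 0.08), which did not pass (adjusted p = 0.525 by limma). GINS2 was at 0.04 (SE 0.08). MCM10, which helps the helicase to start, was at -0.11 (SE 0.07) by the probe used, with the NME2-induced arrays below the control arrays.

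The polymerase genes lay close to 0 as well. POLD1, the catalytic subunit of polymerase delta, had log2 signals of 8.21, 8.19 and 8.16 on the NME2-induced arrays, against 8.22, 7.96 and 8.01 on the control arrays, so the groups overlapped through control replicate 1. The difference was 0.12 on the log2 scale (SE 0.09, adjusted p = 0.576 by limma). POLA1, the catalytic subunit of polymerase alpha, was at -0.02 (95% interval -0.26 to 0.23) and POLE2, a subunit of polymerase epsilon, at -0.06 (95% interval -0.34 to 0.21).

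Of 7 genes for the clamp, its loader, flap removal and strand binding, 1 lay above 0 and 6 below by the probes used. None was past the threshold and none had groups apart. The second detected probes of PCNA and RFC4 lay above 0, and that of RFC3 was lower with its groups apart. RFC2, a small subunit of the clamp loader, had log2 signals of 6.68, 6.97 and 6.63 on the NME2-induced arrays, against 6.84, 6.30 and 6.48 on the control arrays. The groups overlapped and differed by 0.22 on the log2 scale (SE 0.16), with an adjusted p of 0.541 by limma. Without control replicate 1, its highest control array, the difference was 0.37 (unadjusted p = 0.0287, adjusted p = 0.418 by limma), and it lay between 0.10 and 0.29 with any other array left out. The clamp itself, PCNA, was at -0.12 (SE 0.13). The flap endonuclease FEN1 was at -0.09 (SE 0.09), RPA2, which binds single-stranded DNA, at -0.11 (SE 0.09), and RFC3, RFC4 and RFC5 between -0.03 and -0.01.

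By the probes used, DTL had the lowest log2 fold change of the 30 genes. DTL is the substrate receptor of a ubiquitin ligase that removes CDT1 in S phase, and its gene lies at chr1:212035748-212105013 in GRCh38.p14. Read by only 1 probe on the array, DTL was at 7.71, 7.74 and 7.72 on the NME2-induced arrays, against 7.98, 7.89 and 7.93 on the control arrays. All NME2-induced arrays were lower, with a log2 fold change of -0.21 (SE 0.07, 1.16-fold lower), which did not pass over all genes (limma adjusted p = 0.28). Its unadjusted p of 0.0236 was over 0.05 without NME2-induced replicate 1 (0.0552), control replicate 1 (0.0735) or control replicate 3 (0.0564). SLBP, which binds the stem-loop of histone mRNA, was at 0.04 (SE 0.10), and UNG, the glycosylase that removes uracil from DNA, at 0.07 (SE 0.10).

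**Figure D2:**
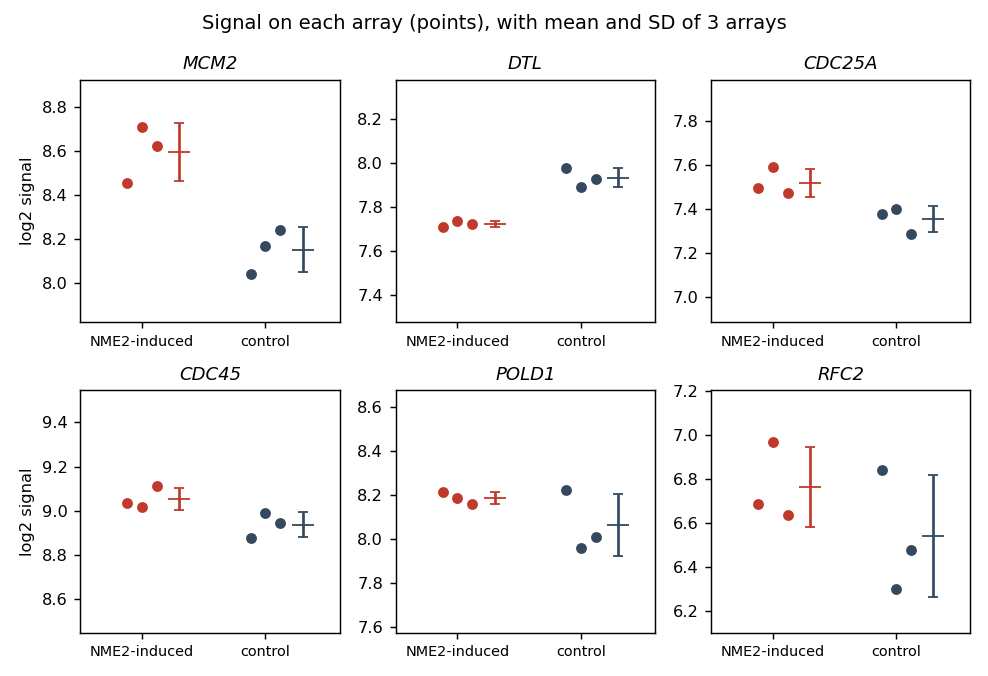
Log2 signal (vertical axes, all spanning the same range) on the 3 NME2-induced and 3 control arrays for the 2 genes at an unadjusted p under 0.05 and for the gene with the largest difference in each other role; points are arrays, bars mean and SD. The groups are apart for MCM2, DTL, CDC25A and CDC45 and overlap for POLD1 and RFC2.

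For 11 of the 30 genes a second probe was detected, and the brightest probe did not always speak for the gene. The probes had the same sign for 6 genes and opposite signs for 5 (ORC6, MCM10, PCNA, RFC4 and SLBP). Of the 11 probes not used, 2 had an unadjusted p under 0.05, beside 13.6% of all 19394 detected probes. Both were lower in NME2-induced cells, and both are named after their values were seen. The second RFC3 probe had log2 signals of 6.97, 6.84 and 6.79 on the NME2-induced arrays, against 7.34, 7.41 and 7.34 on the control arrays. The difference of -0.50 on the log2 scale (SE 0.09) had an adjusted p of 0.104 over all detected probes by limma, and the brighter probe was at -0.01. The second MCM4 probe was at 7.48, 7.52 and 7.58 on the NME2-induced arrays, against 7.89, 7.86 and 8.02 on the control arrays. Its difference was -0.39 on the log2 scale (SE 0.09) with an adjusted p of 0.156, while the brighter probe was at -0.09.

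For PCNA and MCM10 the dimmer probe pointed up. The second PCNA probe was at 5.90, 5.74 and 5.90 on the NME2-induced arrays, against 5.13, 5.44 and 5.94 on the control arrays, a log2 fold change of 0.34 (SE 0.19). By the mean of their probes PCNA was at 0.11 and MCM10 at 0.09, both opposite in sign to the value of the probe used. Where in each transcript the probes lie is not known here, so transcript forms were not compared.

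**Figure D3:**
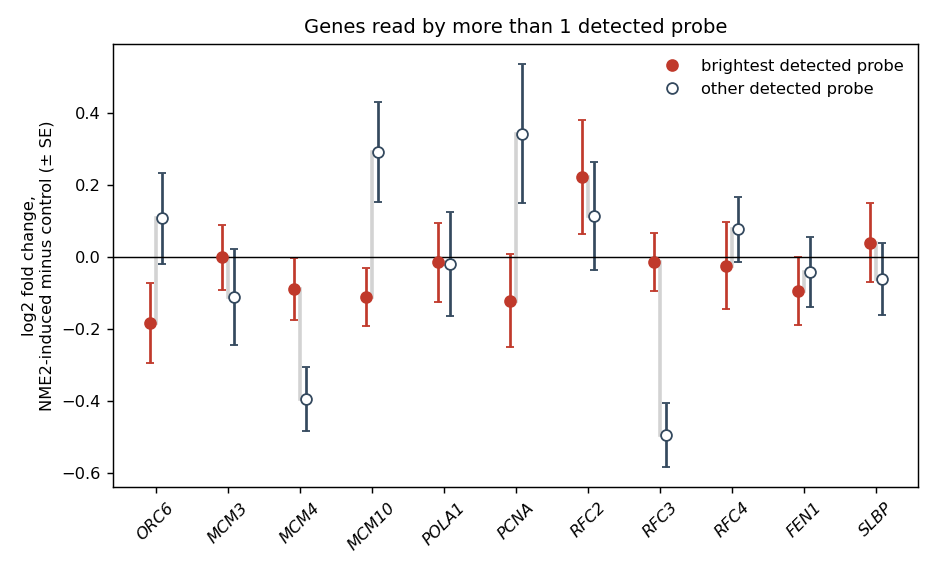
Log2 fold change, NME2-induced minus control, with its SE (vertical axis) for each detected probe of the 11 genes with a second detected probe; filled points are the probe used, open points the other. RFC3 and PCNA show the widest gaps between probes, 0.48 and 0.47.

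The 3 genes without a test were near or below background. The single probe of CCNE2, cyclin E2, and that of CLSPN, a checkpoint adaptor at the fork, were detected on 0 arrays. GINS1 was detected on 1 array, control replicate 3, at 5.33, and lay between 4.52 and 4.67 on the other arrays. The dimmest of the 30 genes tested, CDC6 and E2F1, were detected on all 6 arrays, with means of 5.36 and 5.47.

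A further 81 genes of the pathway were listed, namely kinases with their inhibitors, pocket proteins and E2F factors, further genes for origin licensing and firing, further polymerase, clamp, loader and ligation genes, and genes for fork protection, chromatin assembly and the checkpoint. Of these, 72 were tested and 0 passed in either direction. At an unadjusted p under 0.05, 2 were higher and 10 lower, or 2.78% and 13.9%, whereas 7.3% and 7.17% of all genes tested were higher and lower. The median log2 fold change was -0.02. The mean of the 72 genes relative to the control arrays lay between -0.0464 and -0.0132 on the NME2-induced arrays. On the control arrays it lay between -0.0061 and 0.0052, so the groups were narrowly apart. Over all genes tested the ranges were -0.0029 to 0.007 and -0.0033 to 0.0019, and overlapped. The median of the 72 genes did overlap between groups, at -0.04, 0.02 and -0.04 on the NME2-induced arrays, against -0.01, 0.00 and 0.01 on the control arrays. For the means of the 30 genes the same ranges were -0.01 to 0.03 and -0.01 to 0.01, and overlapped.

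The pathway gene with the smallest p was USP1, a deubiquitinase that acts on PCNA and FANCD2. Its log2 signals were 8.44, 8.29 and 8.11 on the NME2-induced arrays, against 8.74, 8.72 and 8.74 on the control arrays, a 1.37-fold lower signal (log2 fold change -0.45, SE 0.10, limma adjusted p = 0.133). RB1, the retinoblastoma protein, was at 6.45, 6.37 and 6.45 on the NME2-induced arrays, against 6.68, 6.80 and 6.74 on the control arrays (log2 fold change -0.31, SE 0.08, limma adjusted p = 0.173). GINS4 was at 7.54, 7.73 and 7.40 on the NME2-induced arrays, against 7.07, 7.10 and 7.23 on the control arrays (log2 fold change 0.42, SE 0.11, limma adjusted p = 0.176). None of them overlapped between groups, and none passed. USP1 passed with an offset of 50 (limma adjusted p = 0.0377), with that offset and no detection p-values (0.0239) and with the trend and robust options (0.00505), and with the last GINS4 (0.0441) and CDK4 (0.0464) passed too. In the same order, these settings called 74, 83 and 163 of all genes tested higher and 49, 65 and 137 lower. Without these changes 18 were called higher and 10 lower. Over the alternatives the adjusted p lay between 0.00505 and 0.311 for USP1, 0.0441 and 0.379 for GINS4, and 0.0464 and 0.518 for CDK4.

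Of the other pathway genes at an unadjusted p under 0.05, the repressor E2F7 was at -0.34, the kinase CDK4 at -0.28, ORC3 at -0.27 and RFC1, the large subunit of the clamp loader, at -0.25. E2F4, which works mostly as a repressor with pocket proteins, was at 0.25. The E2F partner TFDP2 was at -0.30 and the primase PRIM1 at -0.27 by the probes used, but their second detected probes were at 0.07 and 0.01. For these 7 genes the adjusted p over all genes (limma) lay between 0.22 and 0.297.

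Set out by complex and by the probes used, no subunit passed, and differences between subunits were not tested. Of 6 origin recognition genes, ORC1 lay above 0 and 5 below, with a median of -0.16. The 3 GINS genes tested lay above 0, from 0.04 for GINS2 to 0.42 for GINS4. Of the 5 replication factor C genes RFC2 was above 0 and 4 were below. Polymerase delta ranged from -0.39 for POLD4, the smallest subunit, to 0.19 for POLD3, both named after their values were seen. Cyclins D and E with their kinases lay between -0.28 and 0.14.

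**Figure D4:**
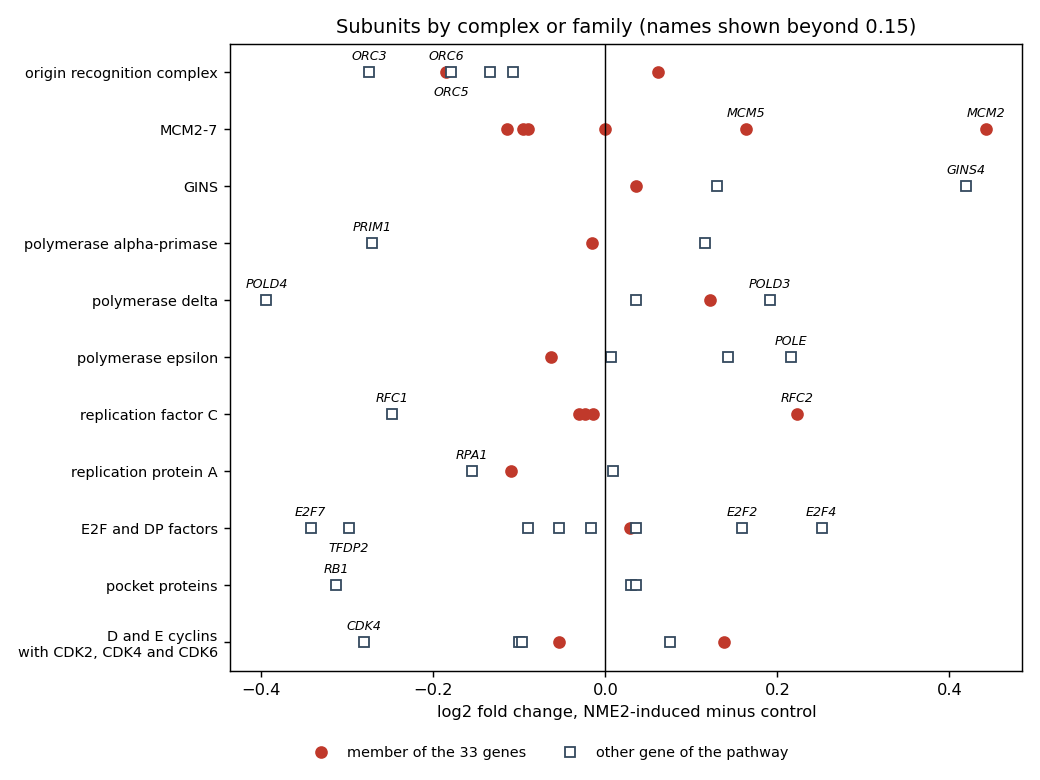
Log2 fold change, NME2-induced minus control (horizontal axis), of every tested subunit by complex or family; red circles are among the 33 genes and open squares are other pathway genes, each from 3 arrays per group. MCM2 and GINS4, at 0.44 and 0.42, are the highest of their complexes; neither passed.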

How the data were processed

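The deposited values are signal intensities on a linear scale, each with its detection p-value, exported by the authors from BeadStudio, version not given in the sources used here. The 2 deposited tables hold the same intensities. Although described as not normalized, the signals share their minimum and maximum on all 6 arrays and 26.6% to 26.8% were at or below 0, so the authors appear to have subtracted background and made the distributions equal. The test planned for values not normalized was kept.

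With limma 3.58.1 in R 4.3.3, neqc estimated background from the detection p-values, added an offset of 16, quantile-normalized and took log2. A fold change on this scale understates that of dim probes. Probes detected on at least 3 of 6 arrays with 1 gene symbol in the platform annotation were kept, 14914 probes for 11358 genes, with the probe of highest mean per gene. Groups, 3 arrays each, were compared by lmFit and eBayes, 2-sided, Benjamini-Hochberg adjusted over the 11358 genes at a threshold of 0.05; probe values were adjusted over 19394 detected probes. The fit was tested on simulated data. The number of arrays limits precision, and no slide is named.

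Members and lists were chosen with earlier results of these data known. By rule, arrays are given for members at an unadjusted p under 0.05 and with the largest difference in each role; of the pathway list, the 10 smallest p are named. Arrays of CDC6, GINS1, second probes and some pathway genes were added after their values were seen. Alternatives changed the background correction, offset, quantile step, dim-probe filter, probe choice, variance model, test, replicate block and arrays. E2F and other motifs were searched in RefSeq windows with Python 3.11.15.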

Additional observations from a re-analysis of the deposited data

How the results depend on the processing

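For the 30 genes, 16 alternatives gave 480 values, of which 451 kept their sign and their side of the threshold and 3 passed it, all of them MCM2. The other 26, in 12 genes and none of them past the threshold, turned sign, under the mean of all detected probes or with 1 array left out and under no other alternative. With the mean of all detected probes PCNA was at 0.11, MCM10 at 0.091, RFC4 at 0.0265 and SLBP at -0.0102. With 1 array left out the range was -0.1478 to 0.2503 for E2F1, -0.14 to 0.2389 for ORC1, -0.2452 to 0.19 for CDC6, -0.0571 to 0.0359 for MCM3, -0.0985 to 0.0656 for POLA1, -0.1512 to 0.0329 for POLE2, -0.1965 to 0.0036 for PCNA, -0.0331 to 0.0066 for RFC3, -0.1081 to 0.0472 for RFC4, -0.0249 to 0.1179 for SLBP and -0.0191 to 0.1216 for UNG. The number of the 30 genes called higher was 1 with an offset of 50, with this offset and normexp without detection p-values, and with the trend and robust options, and 0 otherwise; none was called lower. Pathway genes called numbered 1, 1 and 3 in these settings. At an unadjusted p under 0.05, lower genes of the 30 numbered 3 with the mean of all probes, 2 with the trend and robust options, 3 (and 2 higher) with the methods' t-test and 0 with the replicate block. In each of these settings but the t-test, 1 was higher. Over all genes tested 14.7%, 17.1%, 13.8% and 12.7% reached that level either way, in the same order. The median of the 30 was 0.0081 with the mean of all probes. The cause of these differences was not tested.

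Over all genes, calls of 18 higher and 10 lower became 74 and 49 with an offset of 50, 83 and 65 with this offset and normexp without detection p-values, 39 and 30 for probes detected on all 6 arrays, 163 and 137 with the trend and robust options, and 10 and 3 with the methods' t-test. There were 12 and 6 with no background correction, and 12 and 5 when dim probes were kept. With the replicate block there were 4 and 1. The labels do not say whether arrays with the same replicate number were paired. Deviations of same-numbered arrays correlated between -0.041 and 0.034, and those of other pairs between -0.047 and 0.082. These values show no shared effect but cannot decide whether the arrays were paired. With any 1 array left out, 4 to 9 genes were called higher and 2 lower. Of the 30, 0 were called either way, and 1 to 2 were higher (RFC2 beside MCM2 without control replicate 1) and 0 to 1 lower at an unadjusted p under 0.05. Over all genes tested 11.1% to 14.3% reached that level either way. The median of the 30 was -0.03 to 0.00, and 0 pathway genes were called. The second deposited table was not run, since its intensities are identical. Dim genes such as E2F1 and CDC6 had the widest errors.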

Other observations

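Of 14 tested genes for fork protection, chromatin assembly and the checkpoint, none passed. At an unadjusted p under 0.05, 0 were higher and 3 lower (USP1, ASF1A and UHRF1), or 21.4% lower, beside 7.3% higher and 7.17% lower over all genes tested. In the other roles of the pathway list the share lower was 18.2% for G1/S kinases, inhibitors and pocket proteins. It was 5.88% for origin genes and 10.5% for polymerase, clamp, loader and ligation genes. Of the 14 genes, 6 lay above 0 and 8 below. The genes below are named after their values were seen. The histone chaperone ASF1A was at 6.87, 7.14 and 6.91 on the NME2-induced arrays, against 7.44, 7.17 and 7.15 on the control arrays. The difference was -0.28 on the log2 scale (SE 0.12), with an adjusted p of 0.335 by limma. UHRF1, which brings DNA methylation to new strands, was at 10.05, 10.08 and 9.90 on the NME2-induced arrays, against 10.22, 10.19 and 10.23 on the control arrays. The difference was -0.20 on the log2 scale (SE 0.08), with an adjusted p of 0.322 by limma. The other genes for histone chaperones on the list were at 0.35 (SE 0.16) for CHAF1A, 0.22 (SE 0.11) for CHAF1B, 0.15 (SE 0.10) for ASF1B and 0.09 (SE 0.11) for NASP, each with groups that overlapped.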
